A study of Mus musculus with 12 samples.

Results

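CC chemokine ligands were followed through 3 groups of myeloid-derived suppressor cells (MDSCs), immunosuppressive myeloid cells grown here from mouse bone marrow. The 10 genes described, Ccl2, Ccl3, Ccl4, Ccl5, Ccl6, Ccl7, Ccl9, Ccl12, Ccl17, and Ccl22, were the entries of the deposited count table that carry these symbols, 10 of 35303 symbols in all. All 10 had enough counts to be tested. Against unmodified MDSCs, cells that carried nanoparticles (NPs) held far less RNA of the CCR2 ligands Ccl2 and Ccl7 and less of the CCR4 ligand Ccl17. They held more of Ccl3, Ccl4, and Ccl5, inflammatory chemokines, and, with rapamycin in the NPs, at least 2-fold more of Ccl6 and Ccl9. Between the cells with rapamycin NPs and those with blank NPs, Ccl5 was the only ligand called whose groups did not overlap, with a 2.23-fold higher level in the former.

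Bulk RNA sequencing covered 12 libraries, 4 per group, and both the labels and the study describe the libraries of a group as biological replicates. All cells were wild type. Bone marrow came from C57BL/6 females between 6 and 10 weeks of age. It was grown with IL-6 and GM-CSF and purified by CD11b and Gr1, and after any conjugation the cells of every group spent 24 hours in medium with IL-6 at 40 ng/ml. The MDSC group carried no particles. In the MDSC-NP-Blk group, blank particles of the polymer PLGA were clicked onto azido groups on the cell surface. In the CITED group, the particles were loaded with rapamycin, an inhibitor of the kinase mTOR. Whether the unmodified cells had also received the azido sugar, and how many mice stood behind each replicate, is not given in the sources used here.

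CC chemokines are small secreted proteins with a pair of adjacent cysteines near their amino end. They bind G protein-coupled receptors on leukocytes and guide the cells along gradients, and many ligands share a receptor. Ligands of CCR2 draw monocytes out of the bone marrow and into inflamed tissue, those of CCR1 act on monocytes, neutrophils, and activated T cells, and those of CCR4 attract helper and regulatory T cells.

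Between 20604809 and 37855478 counts were assigned to genes per library, so a floor of 3 counts was at most 0.0000146% of a library. Intervals of folds from summed counts, and floors, cover counting error only. Intervals of log2 fold changes come from the fitted test and also take in the spread between libraries of a group. Itgam, Ly6g, and Ly6c2, which encode CD11b and the antigens that an antibody to Gr1 binds, were abundant in all groups, with mean normalized counts of at least 51965, 3934, and 20232. The tissue field of the labels names the CNS, but 5 of 10 CNS markers (Snap25, Syt1, Rbfox3, Gfap, and Aqp4) had no count in any library, and the list summed to 127 to 172 CPM (counts scaled to a fixed total per library). Nearly all of that sum came from Mbp, which encodes myelin basic protein, with mean normalized counts of 1902 to 2139, and the microglial gene Tmem119, with means of 1395 to 1843. Within the MDSC-NP-Blk group, libraries 1 and 4 resembled each other, as did libraries 2 and 3. Counts differed by a chi-square of 5.69 and 5.91 per degree of freedom within these pairs, and by 15.7 to 21.8 across them. The other 2 groups showed values of 4.72 to 9.60. Results that rest on this group are therefore also given with either pair left out where a call changed.

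Each comparison used the quasi-likelihood test of edgeR over the 17676 symbols with at least 2 counts in all. A gene was called where the adjusted p-value was under 0.05 and the level differed by at least 1 on the log2 scale in either direction. Normalized counts are counts scaled to the mean library. Each error after a mean is an SD with n = 4, and each error after a log2 fold change is a standard error (SE). In bulk RNA, fewer cells that express a gene and less RNA per cell cannot be told apart.

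In CITED against MDSC, 5 of 10 ligands were called higher and 4 lower, beside 3.28% and 6.7% of all genes tested. In MDSC-NP-Blk against MDSC, 3 were called higher and 4 lower, beside 1.88% and 2.86% of all genes tested. These comparisons share the same 4 MDSC libraries. Between CITED and MDSC-NP-Blk, 2 ligands were called higher and none lower, beside 0.651% and 2% of all genes tested. The same shares of all genes apply to the gene and marker lists given below. The ligands' median log2 fold changes were 0.21, 0.07, and 0.27 in the 3 comparisons, where all genes tested had medians of −0.05, −0.03, and 0. These medians stayed the same with Ccl12 at its bound.

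The 10 genes lie in 3 clusters of the mouse genome (GRCm39, GENCODE release 39), and those of the 10 in the same cluster shared a direction against MDSC. Other genes of these stretches were not placed, so a direction shared by a whole stretch was not examined. Ccl2, Ccl7, and Ccl12 lie on chromosome 11 between 81926397 and 81994466, and all were lower with either particle. Ccl5, Ccl9, Ccl6, Ccl3, and Ccl4 lie on chromosome 11 between 83416602 and 83555509, and all were higher. Ccl22 and Ccl17 lie on chromosome 8 between 95471226 and 95538664, and both were lower. All 10 ligands passed the adjusted p-value in both comparisons with MDSC, and those under the fold threshold are named with their values. By the adjusted p-value alone, 3930 of the 17676 genes tested were higher in CITED than in MDSC and 3932 lower. In MDSC-NP-Blk against MDSC, 3522 were higher and 3293 lower.

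**Figure D1:**
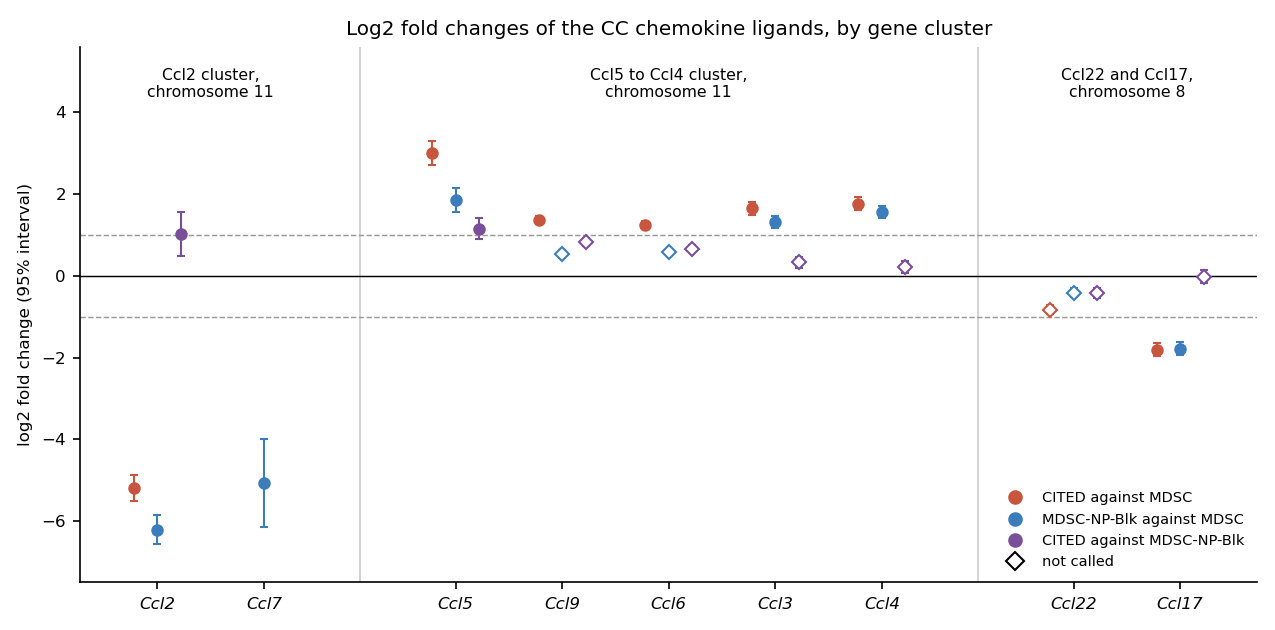
Log2 fold changes of 9 CC chemokine ligands with 95% intervals, arranged by gene cluster, in the 3 comparisons. Filled circles were called, open diamonds were not, and dashed lines mark a log2 fold change of 1 in either direction. Ccl12 and the CITED comparisons of Ccl7 are not drawn because the counts were too few. Against MDSC, the Ccl2 cluster and the chromosome 8 genes lie below 0 and the Ccl5 to Ccl4 cluster lies above 0.

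Ccl2, Ccl7, and Ccl12 encode ligands of CCR2, which draw monocytes. Ccl2 lies on chromosome 11 from 81926397 to 81928279. Its normalized counts in the 4 MDSC libraries were 1320.4, 1152, 1243, and 1265. They were 14.0, 20.7, 21.9, and 7.02 in MDSC-NP-Blk and 48.9, 17.1, 42.2, and 29.0 in CITED. No library with particles came near the MDSC range, whereas the ranges of the particle groups overlapped. The fold from the summed counts was 36.6 between MDSC and CITED (95% interval 30.6 to 44.2) and 74.4 between MDSC and MDSC-NP-Blk (58.6 to 95.9). In the fit, the log2 fold change of Ccl2 was −5.18 ± 0.158 for CITED (adjusted p = 9.0e-24) and −6.21 ± 0.173 for MDSC-NP-Blk (adjusted p = 4.1e-24), each against MDSC.

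Between CITED and MDSC-NP-Blk, where Ccl2 was near the bottom of its range, it was called higher in CITED by a log2 fold change of 1.03 ± 0.263 (adjusted p = 0.00345). The means were 34.3 ± 14.1 and 15.9 ± 6.86. That call was lost in 7 settings, namely in a test against the fold threshold itself, without MDSC-NP-Blk library 1 (0.97), MDSC-NP-Blk library 4 (0.82), CITED library 1 (0.83), or CITED library 3 (0.91), with MDSC-NP-Blk libraries 1 and 4 both left out (0.68), and with the 8 libraries of the comparison alone (1.08, adjusted p = 0.0793).

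Ccl7, on chromosome 11 from 81936532 to 81938351, had raw counts of 90, 58, 77, and 76 in MDSC. The counts were 0, 5, 2, and 1 in MDSC-NP-Blk and 1, 0, 0, and 1 in CITED. All 8 libraries with particles lay below every MDSC library and near the floor. The ratio of MDSC to MDSC-NP-Blk was 34.6 (95% interval 17.3 to 80.9), and that of MDSC to CITED was 121 (33.3 to 1010), from only 2 counts in CITED. Ccl7 was called lower in both comparisons, with adjusted p-values of 8.3e-10 and 7.5e-11.

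Ccl12, on chromosome 11 from 81992645 to 81994466, had few counts even in MDSC, namely 12, 7, 2, and 6. It had none in the other 8 libraries. With a floor of 3 counts over a group, MDSC was at least 8.28-fold higher than MDSC-NP-Blk and at least 7.26-fold higher than CITED. The adjusted p-values were 0.00823 and 0.00841. The calls were lost in a test against the fold threshold itself, and the gene was not tested under a stricter filter on low counts. Against MDSC-NP-Blk, it was also lost with either pair of MDSC-NP-Blk libraries left out.

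Markers of monocytes and macrophages moved beside these ligands. Of 12, 2 were called higher (Cd68 and Ms4a7) and 4 lower (C1qa, C1qb, C1qc, and Mertk) in CITED against MDSC. In MDSC-NP-Blk against MDSC, 1 was called higher (Cx3cr1) and 3 lower (C1qa, C1qb, and C1qc). The complement genes C1qa, C1qb, and C1qc, typical of mature macrophages, had log2 fold changes of −4.05, −3.01, and −4.04 in CITED. Summed over the list, levels were 2008 to 2133 CPM in the MDSC libraries, 2670 to 2820 with blank particles, and 2413 to 2562 in the CITED libraries, and no marker of the list was at 0 throughout. Their part in the fall of Ccl2, Ccl7, and Ccl12 was not tested.

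**Figure D2:**
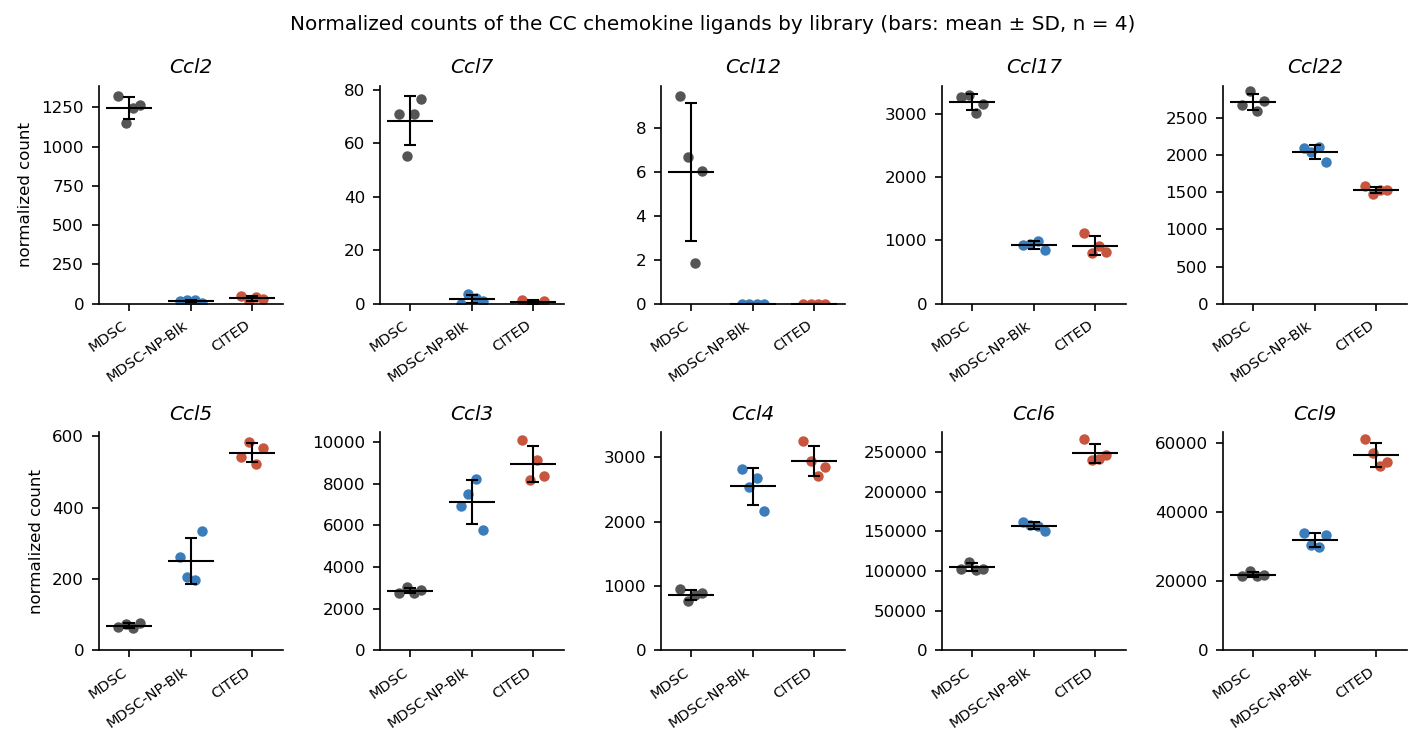
Normalized counts (linear axes from 0) of each ligand in the 12 libraries, 4 points per group, with the mean and SD as bars. Ccl2, Ccl7, and Ccl12 are near or at 0 in both particle groups. Ccl17 stands at a mean of 926 in MDSC-NP-Blk and 913 in CITED against 3179 in MDSC. Ccl5, Ccl6, and Ccl9 form 3 steps without overlap, and Ccl3 and Ccl4 overlap between the particle groups.

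Ccl17 and Ccl22 encode ligands of CCR4, made mostly by dendritic cells and macrophages. Both were lower in cells with particles, but by different patterns. Ccl17, on chromosome 8 from 95534358 to 95538664, had normalized counts of 3264, 3291, 3011, and 3151 in MDSC. The values were 926, 934, 996, and 850.2 in MDSC-NP-Blk and 1121, 806, 916, and 808 in CITED. Every library with particles lay below every MDSC library, and the particle groups overlapped. The log2 fold changes were −1.80 ± 0.0776 in CITED (adjusted p = 7.6e-20) and −1.78 ± 0.0772 in MDSC-NP-Blk (adjusted p = 3.8e-19). Between the particle groups, the log2 difference was −0.02 with a 95% interval of −0.19 to 0.14 (adjusted p = 0.896), which does not show that the groups were equal.

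Ccl22, on chromosome 8 from 95471226 to 95478327, was lower in CITED than in MDSC-NP-Blk and lower there than in MDSC. Its normalized counts were 2677, 2862, 2593, and 2729 in MDSC. They were 2099, 2036, 2115, and 1914 in MDSC-NP-Blk and 1579, 1481, 1526, and 1528 in CITED. The 3 groups did not overlap. Ccl22 passed the adjusted p-value but not the fold threshold in each comparison, with log2 fold changes of −0.83 ± 0.0563 for CITED and −0.41 ± 0.0554 for MDSC-NP-Blk against MDSC. CITED differed from MDSC-NP-Blk by −0.42 ± 0.0566 (adjusted p = 5.0e-07). Scaled by library size alone, CITED against MDSC reached −1.10 and was called.

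Dendritic cell markers stood beside these ligands as follows. Of 10, 1 was called higher (Clec9a) and 1 lower (Siglech, at 0 in all CITED libraries) in CITED against MDSC, and none in MDSC-NP-Blk against MDSC. In the latter comparison 4 were higher and 2 lower at an unadjusted p-value below 0.05, and DESeq2 called 1 lower. The summed levels were 1186 to 1260 CPM in the MDSC libraries, 1326 to 1435 with blank particles, and 1270.3 to 1310 in the CITED libraries. The part of these cells in the fall of Ccl17 and Ccl22 was not tested.

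The letters just upstream of these neighbors are shown because they lie within 67.4 kb of each other and both were lower. The windows are the 250 bases before the start of each gene in RefSeq (GRCm38.p6), written 5′ to 3′ on the gene's strand, and capitals mark matches to a searched motif.
Ccl17, chr8:94810203-94810452, plus strand: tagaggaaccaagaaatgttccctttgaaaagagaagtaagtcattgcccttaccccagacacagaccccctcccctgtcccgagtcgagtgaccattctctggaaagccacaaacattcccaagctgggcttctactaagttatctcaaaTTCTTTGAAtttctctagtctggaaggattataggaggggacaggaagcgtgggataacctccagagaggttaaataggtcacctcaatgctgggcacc
Ccl22, chr8:94745434-94745683, plus strand: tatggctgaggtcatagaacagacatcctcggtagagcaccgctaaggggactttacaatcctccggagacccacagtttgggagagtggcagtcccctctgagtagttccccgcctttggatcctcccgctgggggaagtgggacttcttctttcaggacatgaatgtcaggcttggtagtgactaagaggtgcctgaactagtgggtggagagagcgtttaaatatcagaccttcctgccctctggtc

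The motifs were GGNNTTTCC for NF-kB, TGANTCA for AP-1, TGACGTCA for CRE, TTCNNNGAA for STAT, TTNNGCAA for C/EBP, AAANNGAAA for the interferon response, and TATAAA for the TATA box, on both strands. Of 32817 RefSeq windows of the same length, 4.93%, 6.75%, 1.55%, 7.01%, 9.57%, 9.37%, and 12.4% held them, in that order. The Ccl17 window held a STAT match from −99 to −91, counted back from the start of the gene. The Ccl22 window held none of these letters. The longest run of letters that the windows of Ccl17 and Ccl22 share was 7 bases. A match only describes the letters. RefSeq windows were found for 6 of 10 ligands and not for Ccl2, Ccl4, Ccl5, and Ccl7. That of Ccl12 held only a TATA match, from −31 to −26, and that of Ccl3 held none.

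Ccl5, also called RANTES, encodes a ligand of CCR1 and CCR3 that acts on T cells and monocytes. It lies on chromosome 11 from 83416602 to 83425942 and rose with either particle. Its normalized counts were 63.7, 72.3, 61.7, and 77.5 in MDSC. They were 263, 205, 198, and 334 in MDSC-NP-Blk and 542, 585, 523, and 567 in CITED. The 3 groups did not overlap, and MDSC-NP-Blk libraries 1 and 4 lay above libraries 2 and 3. Against MDSC, the log2 fold change was 3.01 ± 0.141 in CITED (8.07-fold, adjusted p = 7.5e-19) and 1.85 ± 0.145 in MDSC-NP-Blk (3.61-fold, adjusted p = 1.1e-12).

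Ccl5 was also higher in CITED than in MDSC-NP-Blk, by a log2 fold change of 1.16 ± 0.125 (2.23-fold, adjusted p = 4.7e-09). Leaving out MDSC-NP-Blk libraries 2 and 3 took the value to 0.89 (adjusted p = 4.6e-07), under the fold threshold, and a test against that threshold did not call it. Lymphocytes are a textbook source of Ccl5. T cell markers summed to 2.20 to 3.25 CPM in the MDSC libraries, 2.11 to 3.38 with blank particles, and 2.18 to 3.05 in the CITED libraries, with 0 of 7 called by edgeR in any comparison. At an unadjusted p-value below 0.05, none differed from MDSC and 1 was higher in CITED than in MDSC-NP-Blk, and DESeq2 called that number too. Natural killer cell markers summed to 19.0 to 23.3 CPM in the MDSC libraries, 15.8 to 17.5 with blank particles, and 3.74 to 5.34 in the CITED libraries. The sum was nearly all Nkg7, the only marker of 5 called lower in CITED (501 ± 49.4 to 103 ± 12.8), while Ncr1 had no count in any library and the means of Klrb1c, Gzma, and Eomes were at most 4.45. The part of these cells in the level of Ccl5 was not tested.

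Ccl3 and Ccl4, known as MIP-1 alpha and beta, encode inflammatory chemokines that activated macrophages secrete, and the product of Ccl3 binds CCR1. Ccl3 lies on chromosome 11 from 83538670 to 83540191. Its normalized counts were 2762, 3018, 2754, and 2872 in MDSC. They were 6944, 7505, 8245, and 5778 in MDSC-NP-Blk and 10088, 8184, 9135, and 8378 in CITED. All libraries with particles lay above all MDSC libraries. The log2 fold changes were 1.65 ± 0.0734 in CITED (adjusted p = 1.8e-19) and 1.32 ± 0.0729 in MDSC-NP-Blk (adjusted p = 2.1e-16).

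Ccl4, on chromosome 11 from 83553383 to 83555509, had normalized counts of 948, 763, 851, and 889 in MDSC. They were 2815, 2531, 2681, and 2158 in MDSC-NP-Blk and 3261, 2939.6, 2708, and 2849 in CITED. The particle groups overlapped for both genes and lay above MDSC. The log2 fold changes of Ccl4 were 1.77 ± 0.0754 in CITED (adjusted p = 6.0e-20) and 1.56 ± 0.0751 in MDSC-NP-Blk (adjusted p = 5.8e-18). CITED exceeded MDSC-NP-Blk by log2 fold changes of only 0.33 ± 0.0711 for Ccl3 (adjusted p = 5.8e-04) and 0.21 ± 0.0717 for Ccl4 (adjusted p = 0.0339), which passed the adjusted p-value but not the fold threshold.

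Ccl6 and Ccl9 encode ligands of CCR1 that myeloid cells make in abundance. Ccl6, on chromosome 11 from 83478708 to 83483913, had normalized counts of 102790, 111892, 101076, and 102728 in MDSC. They were 161763, 158049, 156792, and 151016 in MDSC-NP-Blk and 266452, 239865, 241158, and 246486 in CITED. The 3 groups did not overlap. The log2 fold change was 1.25 ± 0.0409 in CITED against MDSC (adjusted p = 7.3e-23), and this was the call lost when libraries were scaled by size alone (0.97). MDSC-NP-Blk exceeded MDSC by 0.58 ± 0.0404 and CITED exceeded MDSC-NP-Blk by 0.66 ± 0.0404. These passed the adjusted p-value (4.9e-14 and 8.2e-15) but not the fold threshold.

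Ccl9, on chromosome 11 from 83463745 to 83473161, had normalized counts of 21562, 22912, 21533, and 21679 in MDSC. They were 33956, 30529.6, 29794, and 33429.8 in MDSC-NP-Blk and 61154, 57164, 53386, and 54688 in CITED. Again the groups did not overlap. The log2 fold change was 1.37 ± 0.0485 in CITED against MDSC (adjusted p = 5.4e-22). MDSC-NP-Blk exceeded MDSC by 0.54 ± 0.0478 (adjusted p = 1.8e-11), and CITED exceeded MDSC-NP-Blk by 0.83 ± 0.0479 (adjusted p = 2.5e-15), both under the fold threshold.

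For Ccl3 and Ccl4, by contrast, most of the difference between CITED and MDSC was already present in MDSC-NP-Blk. Neutrophil markers varied in both directions beside them. Of 13, 3 were called higher (Csf3r, Mmp8, and Retnlg) and 4 lower (Mpo, Elane, Prtn3, and Camp) in CITED against MDSC, and their summed levels were 36834 to 40757 CPM in the MDSC libraries, 50611 to 53271 with blank particles, and 36811 to 41589 in the CITED libraries. Eosinophil markers summed to 1281 to 1531 CPM in the MDSC libraries, 1013 to 1217 with blank particles, and 411 to 421 in the CITED libraries, and B cell markers to at most 15.0, 10.2, and 4.07 CPM, in that order of groups. The part of these cells in the ligand levels was not tested.

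The windows upstream of Ccl6 and Ccl9 are shown because these genes are neighbors, are the most abundant ligands, and had the most similar profiles of any pair of ligands. The build, the strand convention, and the capitals are as for Ccl17 and Ccl22.
Ccl6, chr11:83593088-83593337, minus strand: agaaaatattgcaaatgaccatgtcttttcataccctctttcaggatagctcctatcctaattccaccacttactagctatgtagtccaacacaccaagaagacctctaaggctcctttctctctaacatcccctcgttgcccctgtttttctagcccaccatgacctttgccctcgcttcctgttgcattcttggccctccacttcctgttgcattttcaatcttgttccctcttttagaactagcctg
Ccl9, chr11:83578637-83578886, minus strand: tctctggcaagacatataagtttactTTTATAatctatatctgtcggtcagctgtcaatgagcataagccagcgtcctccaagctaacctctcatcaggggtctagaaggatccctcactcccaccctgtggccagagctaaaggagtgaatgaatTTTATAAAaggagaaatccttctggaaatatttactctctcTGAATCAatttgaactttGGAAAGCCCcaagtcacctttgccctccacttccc

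The Ccl9 window held an AP-1 match from −53 to −47 and, on the opposite strand, an NF-kB match from −35 to −27. It also held TATA matches from −92 to −87 and, on the opposite strand, from −94 to −89 and from −224 to −219; the matches that begin at −92 and −94 overlap. The Ccl6 window held none of the searched letters. The longest run of letters in both windows was gccctccacttcc, 13 bases, which begins at −55 before Ccl6 and at −14 before Ccl9.

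Levels of different ligands were compared only per transcript length, as TPM, counts divided by the length of each gene's canonical transcript and scaled to a fixed sum in every library. On this scale Ccl6 was the most abundant ligand in every group, at 6954 ± 173 in unmodified MDSCs, 8006 ± 231 with blank particles, and 12725 ± 292 with rapamycin particles. It ranked 14, 12, and 5 among all genes. Ccl6 made up 77.3%, 80.3%, and 81.9% of the summed level of the 10 ligands. In MDSC the order was Ccl6, Ccl9 (697), Ccl17 (585), Ccl3 (352), Ccl2 (147), Ccl4 (120.4), Ccl22 (117), Ccl5 (12.3), Ccl7 (8.13), and Ccl12 (0.710), and only Ccl4 and Ccl22 overlapped as neighbors in that order.

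The order differed with particles. In MDSC-NP-Blk, Ccl3 (675) and Ccl4 (272) stood above Ccl17 (131), Ccl22 (67.7), and Ccl5 (34.3), and Ccl2 was at 1.44. Ccl9 (778) and Ccl3 overlapped there, as did Ccl7 and Ccl12. In CITED, Ccl9 was at 1386, Ccl3 at 849, Ccl4 at 315, Ccl17 at 129, Ccl5 at 76.5, Ccl22 at 50.9, and Ccl2 at 3.10, and only Ccl7 and Ccl12 overlapped as neighbors. In raw counts, the 10 ligands took 0.631 ± 0.0205% of all counts in unmodified MDSCs, 0.772 ± 0.0180% with blank particles, and 1.21 ± 0.0497% with rapamycin particles, nearly all of it from Ccl6 and Ccl9. These genes made up 91.8 to 92.3% of the ligands' counts in MDSC libraries, 92.9 to 94.4% with blank particles, and 95.2 to 95.5% in CITED libraries. A level per length is a share of its own library and was not used for fold changes.

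**Figure D3:**
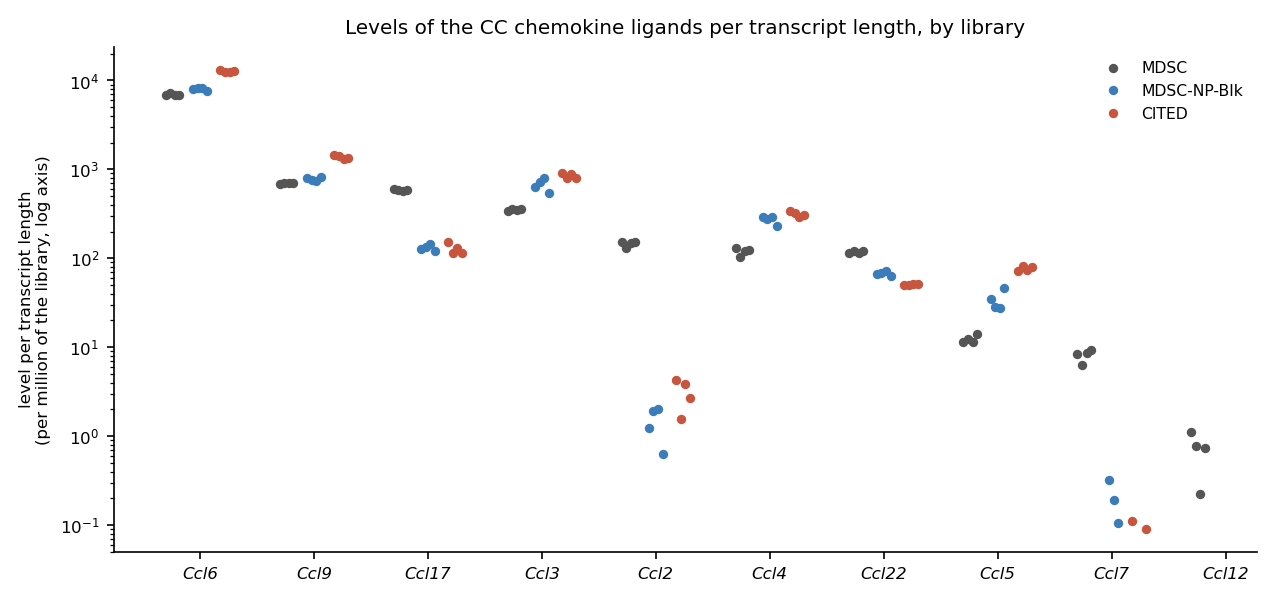
Level of each ligand per transcript length (TPM, log axis) in the 12 libraries, ordered by the mean in MDSC. Libraries at 0 cannot be drawn on a log axis, which leaves out all 8 particle libraries for Ccl12, MDSC-NP-Blk library 1 and CITED libraries 2 and 3 for Ccl7. Ccl6 lies highest in every group, and Ccl2 lies at 147 in MDSC, against 1.44 with blank and 3.10 with rapamycin particles.

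Similarity between profiles was described by the root mean square difference of log2 CPM over the 12 libraries, after each gene was centered on its own mean. Ccl6 and Ccl9 differed by 0.0907, and Ccl3 and Ccl4 by 0.166. Ccl17 and Ccl22 differed by 0.584, and Ccl5 differed from Ccl4 by 0.588. Against 10548 other genes, the closest profile to Ccl6 was that of Slfn1 (0.0442), to Ccl9 that of Ctsl (0.0723), to Ccl3 that of the CXC chemokine Cxcl2 (0.0863), and to Ccl4 that of Schip1 (0.0880). Cxcl3, another CXC chemokine, was closest to Ccl5 (0.257), Psat1 to Ccl17 (0.172), and Tfdp1 to Ccl22 (0.0430). The closest to Ccl2 was Ccnd1 at 1.44, which is far from it. Cxcl2 had mean normalized counts of 2575, 6306, and 8157 in MDSC, MDSC-NP-Blk, and CITED, and Cxcl3 had 3473, 15630.4, and 32448.

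Of 13 other CC ligands, 7 had no count in any library and 6 were tested, of which Ccl24 and Ccl25 had a mean normalized count of at least 50. In CITED against MDSC, 2 were called higher and none lower, beside 3.28% and 6.7% of all genes tested. At an unadjusted p-value below 0.05, 2 of the list were higher and 1 lower, and DESeq2 called 2 higher and 0 lower. Ccl24, a ligand of CCR3 called eotaxin-2, rose from 96.2 ± 15.3 to 202 ± 19.8, a log2 fold change of 1.06 ± 0.152 (adjusted p = 3.1e-07). Ccl8 had no count in MDSC, 22 in the 4 MDSC-NP-Blk libraries, and 18 in the 4 CITED libraries, at least 7.97-fold and at least 7.44-fold above the floor of 3 counts. Its counts ranged from 0 to 13 in MDSC-NP-Blk, which overlapped MDSC, and from 3 to 7 in CITED. It was the only gene of the list called in MDSC-NP-Blk against MDSC, where 1.88% of all genes tested were called higher and 2.86% lower. The median of the tested genes in CITED against MDSC was −0.06, or 0.51 with genes at 0 in a group set at their bound, so it depended on genes near the floor.

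Of 15 genes for CC receptors, 14 were tested, and Ccr8 had no count. In CITED against MDSC, 1 was called higher and 1 lower, beside 3.28% and 6.7% of all genes tested. Ccr1, which encodes a receptor for Ccl3, Ccl5, Ccl6, and Ccl9, rose from 9989 ± 474 to 20221 ± 845, a log2 fold change of 1.02 ± 0.0462 (adjusted p = 3.2e-19). Ccr2, which encodes the receptor for Ccl2, Ccl7, and Ccl12, fell from 3583 ± 136 to 1582 ± 80.3, a log2 fold change of −1.18 ± 0.0605 (adjusted p = 7.6e-18). Both had intermediate means in MDSC-NP-Blk, 16234 ± 420 for Ccr1 and 2249 ± 190.2 for Ccr2. These values are of RNA. By flow cytometry, the study reported more CCR2 protein on MDSCs after conjugation of rapamycin NPs, the opposite direction. Protein was not measured in these libraries. In MDSC-NP-Blk against MDSC, 0 of 14 were called by edgeR or by DESeq2, although 4 were higher and 2 lower at an unadjusted p-value below 0.05. There, 1.88% of all genes tested were called higher and 2.86% lower. The list's median was −0.29 in CITED against MDSC, beside −0.05 for all genes tested.

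Of 27 genes that act below these receptors (G proteins, kinases, arrestins, and the migration machinery), 1 was called higher and 1 lower in CITED against MDSC. All genes tested had 3.28% and 6.7%. By the adjusted p-value alone, 14 of the list were higher and 7 lower, beside 3930 and 3932 of the 17676 genes tested. Rgs1, a regulator that shortens G protein signals, rose from 92.0 ± 19.4 to 374 ± 25.6, a log2 fold change of 2.03 ± 0.132 (adjusted p = 4.5e-15), and it was also called higher in MDSC-NP-Blk, at 268 ± 27.5, where 0 genes of the list were called lower by edgeR or DESeq2. At an unadjusted p-value below 0.05, 16 were higher and 4 lower there. Of all genes tested, 1.88% were called higher and 2.86% lower in MDSC-NP-Blk against MDSC. Grk3, a kinase that desensitizes receptors, fell in CITED from 382 ± 36.2 to 175 ± 13.5, a log2 fold change of −1.13 ± 0.115 (adjusted p = 2.6e-10). The median of the list was 0.22.

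Of 24 genes that encode regulators of chemokine genes, such as NF-kB, AP-1, C/EBP, IRF, and STAT proteins, 8 were called higher and none lower in CITED against MDSC. All genes tested had 3.28% and 6.7%. The list was not split into activators and inhibitors. By the adjusted p-value alone, as by the unadjusted one, 21 were higher and 1 lower (Stat5a). Of the 17676 genes tested, 3930 were higher and 3932 lower by the adjusted p-value alone. DESeq2 called 8 of the 24 higher and none lower. Junb, a subunit of AP-1, rose from 3629 ± 263 to 13253 ± 819, a log2 fold change of 1.87 ± 0.0534 (adjusted p = 1.7e-24), and Cebpb rose from 6728 ± 415 to 19120.3 ± 690.5, a log2 fold change of 1.51 ± 0.0521 (adjusted p = 2.9e-22). The others called were Zfp36, Fos, Irf7, Relb, Nfkb2, and Rela. In MDSC-NP-Blk against MDSC, 5 were called higher (Junb, Zfp36, Fos, Relb, and Cebpb) and none lower, beside 1.88% and 2.86% of all genes tested. At an unadjusted p-value below 0.05, 22 regulators were higher and 1 lower there, and DESeq2 called 4 higher and 0 lower. The medians were 0.54 and 0.51.

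Between CITED and MDSC-NP-Blk, 0 genes of these 4 lists were called by edgeR or by DESeq2, where edgeR called 0.651% of all genes tested higher and 2% lower. At an unadjusted p-value below 0.05, 1 of the other CC ligands was higher and 0 lower, 2 CC receptors were higher and 1 lower, 5 signaling genes were higher and 8 lower, and 9 regulators were higher and 0 lower. Among the ligands themselves, where 0 were called lower, Ccl22 was the only gene lower at an unadjusted p-value below 0.05, and DESeq2 called 0 lower. The medians of the lists were −0.18, −0.24, −0.06, and 0.05, beside 0 for all genes tested.

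**Figure D4:**
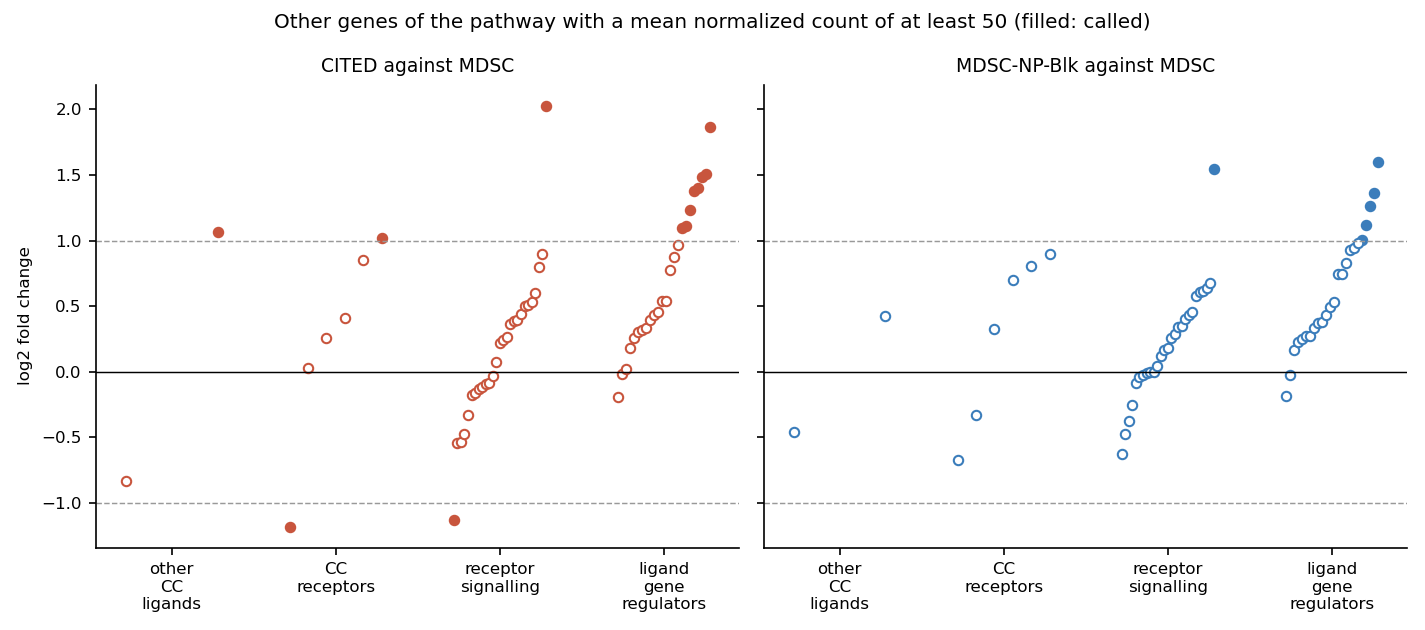
Log2 fold changes against MDSC of the other genes of the pathway with a mean normalized count of at least 50 (2 other CC ligands, 6 CC receptors, 27 signaling genes, and 24 regulators), for CITED on the left and MDSC-NP-Blk on the right. Points within a list run from the lowest to the highest value, filled points were called, and dashed lines mark a log2 fold change of 1 in either direction. The regulators reach 1.87 (Junb) in CITED and none of them was called lower.

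Sequence shared with other genes touched few ligands. The percentage of the 31-base words of a ligand's transcripts that also occur in other genes was 5.37% for Ccl9, 0.923% for Ccl6, 0.49% for Ccl5, and 0 for the rest. Genes on the opposite strand overlap Ccl3 (Gm53692), Ccl5 (Gm73713), and Ccl6 and Ccl9 (E230016K23Rik). Whether the counting used strand is not given in the sources used here, and without it reads of a gene and of such a partner cannot be told apart.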

How the data were processed

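Total RNA of 12 cultures of mouse MDSCs (4 MDSC, 4 MDSC-NP-Blk, and 4 CITED) was sequenced after library preparation with an Abclonal RNA-seq kit. Per the study's methods and the submitters' processing notes, the authors quantified reads with Salmon 1.4.0 against a GENCODE transcriptome of GRCm39 and summed them to genes in R 4.3.2. The authors deposited raw whole-number counts per gene symbol, and the release behind them is not given in the sources used here. The 1 entry with an empty symbol was left out, and 0 columns of other samples were present. Groups were taken from the labels.

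Counts were analyzed with edgeR 4.0.16 in R 4.3.3 (TMM scaling, quasi-likelihood test, 12 libraries in 1 fit, group as the only term), over symbols with at least 2 counts in all, with Benjamini-Hochberg adjustment over all of them. A call needed an adjusted p-value under 0.05 and a difference of at least 1 on the log2 scale, up or down. The shared biological coefficient of variation was 9.03%. Steps across all genes were tested on data with known changes. Folds of Ccl2, Ccl7, Ccl8, and Ccl12 near 0 came from summed counts, with exact 95% intervals or a floor of 3 counts over the group.

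The members and lists were chosen with earlier results of these data known. All 10 members were named. From each other pathway list, the 2 called genes that rose most and the 2 that fell most in CITED against MDSC were named by rule, with their values, and other listed genes were named after their values were seen. For each member with a mean normalized count of at least 50, the gene outside the members with the most similar centered log2 CPM (prior count 2) was named. Ly6g and Ly6c2 stand in 2 marker lists each. Alternatives were DESeq2 1.42.0, other scalings, other filters, a correction for length, the replicate number as a block, fits on only the 8 libraries compared, other thresholds, each replicate left out, and, chosen after seeing the data, either pair of MDSC-NP-Blk libraries left out. Positions and lengths came from GENCODE release 39 (GRCm39), and promoter windows from RefSeq (GRCm38.p6), and coordinates of these builds were not mixed.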

Additional observations from a re-analysis of the deposited data

Results flagged for a closer look

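Among 28 groups of 4 libraries, 2 held a library far from the others by Dixon's criterion, which chance meets in about 1 in 20 groups. For Ccl6, MDSC replicate 2 had a normalized count of 111892, where the other MDSC libraries had 101076 to 102790. For Ccl9, the same library had 22911.8, where the others had 21532.6 to 21679.1. Without MDSC replicate 2, both ligands were still called higher in CITED than in MDSC.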

How the results depend on the processing

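The numbers of ligands called in CITED against MDSC (5 higher, 4 lower) and in MDSC-NP-Blk against MDSC (3 higher, 4 lower) did not move when any 1 replicate was left out. Without the fold threshold, MDSC-NP-Blk against MDSC had 5 higher, and CITED against MDSC-NP-Blk had 6 higher and 1 lower. In the latter comparison, 2 were called higher in the main analysis, 0 in a test against a log2 fold change of 1, and 1 with its 8 libraries alone or with either pair of MDSC-NP-Blk libraries left out. Leaving out 1 replicate gave 1 to 2 higher and 0 lower. The log2 fold change of Ccl17 in this comparison changed sign, to 0.0308 with a length correction and to 0.0368 with MDSC-NP-Blk libraries 2 and 3 left out, and ranged from −0.136 to 0.0311 when 1 replicate was left out. It was called in none of these. Over all alternatives and comparisons, 16 calls of ligands were lost (Ccl2 7, Ccl12 6, Ccl5 2, and Ccl6 1) and 10 were gained, 9 of them without the fold threshold and that of Ccl22 under library size alone. The cause was not tested, except that the thresholds and the stricter filter change the calls by construction.

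Scaling by library size alone shifted the median of all genes by −0.27 for CITED and −0.26 for MDSC-NP-Blk, each against MDSC, and called 272 genes higher and 1890 lower, and 146 and 1060, where the main analysis called 580 and 1185, and 333 and 505. Without the fold threshold, 3930 and 3932, 3522 and 3293, and 1862 and 2021 genes were called in the 3 comparisons. A test against the threshold called 233 and 489, 81 and 62, and 14 and 45. Deviations from the group mean had correlations of −0.0597 to 0.14 over 10556 genes between libraries of the same replicate number in different groups. These values cannot show whether the libraries were paired in preparation, which is not given in the sources used here. A replicate block changed no call of a ligand and called 535 and 1086, 310 and 456, and 102 and 339 genes. Depth limited Ccl12, and Ccl2 and Ccl7 in the particle groups.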

Other observations

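Granule genes of early neutrophils differed beside the chemokines. In CITED against MDSC, Mpo fell by 4.41 ± 0.0759 (SE) on the log2 scale, Elane by 3.27 ± 0.0561, and Prtn3 by 2.17 ± 0.0539, with adjusted p-values by edgeR's quasi-likelihood test of 5.2e-31, 5.2e-31, and 4.0e-26. Mmp8, a collagenase of later neutrophil granules, rose from a mean normalized count of 46265 ± 1858 to 127750 ± 2079 (SD, n = 4). Camp, Ngp, and Ltf went the other way, with log2 fold changes of −1.21, −0.41, and −0.19. Of all 13 neutrophil markers, 5 were higher and 6 lower by the adjusted p-value alone. The eosinophil granule gene Epx fell from 19824 ± 1878 to 3740.2 ± 199.8. Of 4 eosinophil markers, 3 were lower and 1 higher (Siglecf, log2 fold change 0.30) by the adjusted p-value alone. For each gene named here, all 4 CITED libraries lay on the same side of all 4 MDSC libraries. These genes were picked after their values were seen.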
